A study of Mus musculus with 1119 samples.

Results

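Replication-dependent histone genes encode the linker histone H1 and the core histones H2A, H2B, H3 and H4 that package newly copied DNA. The 71 rows described here are every row whose gene symbol begins Hist1h, Hist2h, Hist3h or Hist4h, out of 46609 rows in each of 3 tables of mouse back skin cells. The choice used the symbols and no measured value. By histone class the 71 rows are 6 of H1, 20 of H2A, 20 of H2B, 12 of H3 and 13 of H4. They carry 70 symbols, since Hist2h2bb stands on 2 Ensembl identifiers.

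The 1119 samples are single cells of the hair follicle, sorted into multiwell plates and read by Smart-seq2, a method that copies RNA from its poly(A) tail. The authors' annotation gives 6 types. The bulge of the resting (telogen) follicle, which holds its stem cells, gave 39 cells at postnatal day 21 (P21). The telogen hair germ, the cluster of progenitors under the bulge, gave 71 cells at P21. The first stage of growth (anagen I) gave 89 hair germ cells, 73 of them from P23 to P24 and 16 from P25 to P27, and the second (anagen II) gave matrix cells of P25 to P27 on 3 plates of 55, 76 and 68 cells. Full growth (anagen VI) at P30 gave matrix cells, the dividing cells of the hair bulb, on 5 plates of 74 to 81 cells, and cells of the dermal papilla, the mesenchymal core of the bulb, on 4 plates of 77 to 87 cells.

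Cells of P21 to P27 came from mice of both sexes labelled Lgr5-eGFPiresCreER;R26-tdTomato, which carry a green reporter and an inducible Cre recombinase under the stem cell gene Lgr5 and a red reporter of recombination. They were sorted on integrins α6 and b1, CD34, Pcadherin and both reporters. The P30 matrix cells came from mice of both sexes labelled Lhx2-GFP (CD1), sorted on integrins α6 and b1, CD34, Sca-1, Pcadherin and GFP. The P30 dermal papilla came from male K14-H2BGFP;LEF1-RFP mice, sorted on CD117, integrin α9 and both reporters. In that line the keratin 14 promoter of keratinocytes drives a fusion of histone H2B to GFP. No label names a treatment or tells which animal a cell came from, so each group counted as 1 sample, no test was possible, and no p-value or standard error is given. Values by plate show the spread between plates, which may hold differences between animals, since no label tells the animal. Intervals of shares are exact binomial (Clopper-Pearson) intervals at 95% that cover the counting of cells only.

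Values are TPM, the share of a gene among the transcripts of a cell per 1000000, and hold no record of read depth. A gene counted as detected in a cell at a TPM of 1 or more, and the median number of genes detected per cell ran from 5475 in anagen II matrix to 7361.5 in anagen VI matrix. In 44 cells fewer than 1000 genes were detected, 33 of them in the dermal papilla, and in 40 of the 44 the histone rows summed to less than 1 TPM. The other 4 of these cells held the single highest values of Hist1h2ac (12868 TPM in a P30 matrix cell with 72 genes), Hist1h2ab (6550 TPM in a P25 to P27 matrix cell), Hist1h2ak (4762 TPM in a P30 matrix cell) and Hist1h2ad (3977 TPM in a P23 to P24 germ cell). Hist1h2ac and Hist1h2ad are named for these cells after their values were seen. No pair of cells had identical columns.

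Markers fitted the labels in part. The 4 keratinocyte genes tried summed to a mean of 162.2 TPM in P30 matrix and 1708 to 3941 TPM in the P21 to P27 groups, against 1.24 TPM in the dermal papilla. The 7 dermal papilla genes summed to 2244 TPM in the dermal papilla and to 5.27 to 50.5 TPM elsewhere. Of 6 matrix genes, 5 were detected in at least 50% of the P30 matrix cells and none in 50% of the P25 to P27 cells annotated as matrix. In those cells the 5 bulge genes summed to a mean of 1354 TPM, so that the name matrix is the authors' there. The 4 melanocyte genes summed to a mean of 311.7 TPM in P30 matrix and to at most 1.62 TPM in the P21 to P27 groups.

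Cells make replication-dependent histone mRNAs in large amounts while they copy their DNA in S phase and destroy them when it ends. These mRNAs mostly lack introns, and they end in a short stem-loop, which the stem-loop binding protein (SLBP) holds, in place of the poly(A) tail of other mRNAs. Some of these genes are also known to give polyadenylated transcripts, including in cells that have stopped dividing. An oligo-dT method therefore reads only part of the histone mRNA of a cell, and how large that part was in each group cannot be told from these values.

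The stem-loop was read from the annotated transcripts (GENCODE M21, GRCm38) as 16 bases, a perfect stem of 6 base pairs around a loop of 4 bases that starts with TT, within 150 bases after the stop codon. It was found in 44 of the 71 rows in 6 spellings, shown here because they part H4 from the other classes, with the loop in capitals.
26 rows of H1, H2A, H2B and H3: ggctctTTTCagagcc
7 rows of H4: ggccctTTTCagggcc
6 rows of H1, H2B and H3: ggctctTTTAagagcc
2 rows of H4: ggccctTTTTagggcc
2 rows of H4: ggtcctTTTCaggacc
1 row of H2A: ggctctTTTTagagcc
The H4 rows shared no spelling with the other classes. Of the rows with no match, 17 have an annotation that ends at or near the stop codon, 4 have no coding transcript, and 6, Hist1h2bc among them, extend beyond the stop codon without a stem-loop of these letters.

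Annotated transcripts differ in what follows the stem-loop. In 22 rows the longest transcript runs on for at least 100 bases past it, and in the other 22 for fewer. The stem-loops of 5 members whose values are given below are shown with the bases around them, the stem-loop in capitals.
Hist1h1e, chr13:23621782-23621797, minus strand, 1153 bases follow: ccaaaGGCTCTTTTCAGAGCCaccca
Hist1h4d, chr13:23581950-23581965, plus strand, 770 bases follow: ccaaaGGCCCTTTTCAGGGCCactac
Hist2h4, chr3:96262939-96262954, minus strand, 1257 bases follow: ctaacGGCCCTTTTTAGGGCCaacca
Hist1h3b, chr13:23752820-23752835, plus strand, 51 bases follow: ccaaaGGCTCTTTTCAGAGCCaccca
Hist1h2ap, chr13:21833029-21833044, minus strand, 3 bases follow: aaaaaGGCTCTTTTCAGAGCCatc
Hist1h1e and Hist1h3b share all 26 bases, while the annotation runs on for 1153 bases in one and 51 in the other. RefSeq gives shorter transcripts for some of these genes, 782 bases for Hist1h1e against 1930 in GENCODE and 402 for Hist1h4d against 1138, so the long ends differ between annotations.

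Most members lie in clusters. On chromosome 13 are 56 rows, all within chr13:21715763-23934851 except the pseudogene Hist1h2al at chr13:51202727-51203065. On chromosome 3 are 11 rows, within chr3:96219865-96279001, and 3 rows lie on chromosome 11 and 1 on chromosome 6. In GENCODE 67 rows are protein coding, 3 are pseudogenes (Hist1h2al, Hist1h2aj and Hist3h2bb-ps) and 1 is a lincRNA. The longest transcripts had a median of 534 bases and reached 7425, and 63 are a single exon.

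Near-identical copies make the value of a single row uncertain. In 67 of 71 rows at least 1 window of 50 bases also occurs in the transcript of another gene, and in 35 rows at least 50% of the windows do, with a median of 49.7%. Of the members described most below, Hist1h2ap shares 93.1% of its windows with 24 genes and Hist2h3b 79.7% with 12. Hist1h1e shares 32.004% and Hist1h4d 10.2%, while Hist1h1b shares none. How the authors' quantification divided reads among the copies can move TPM between members of a class, and 27 rows overlap another gene, with no statement on strand. A sum over a class holds all reads divided within it. Its TPM can still change with the division, since members differ in transcript length and TPM takes length into account.

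Promoters from RefSeq (GRCm38.p6) were given for 61 of the 70 symbols, as 62 windows of 250 bases before and 50 after the start. CCAAT, read on either strand, was in 85.5% of them against 37.4% of all 32851 promoters in the table. All 6 H1, 17 H2A, 17 H2B and 10 H3 windows held it, and 3 of the 12 of H4. TATAAA was in 56.5% against 13.6% of all promoters. The octamer ATTTGCAT, read on either strand, was in 7 of 17 H2A and 7 of 17 H2B windows and in none of the other classes, 22.6% of all histone windows against 1.74% of all promoters. H2A and H2B genes often face each other, so that their windows can overlap. The 150 bases before the start are printed for 1 member each of H1, H2A, H3 and H4, chosen after their values were seen, with the matches in capitals (CCAAT, or ATTGG for the other strand, TATAAA, and in Hist1h2ab the octamer as ATGCAAAT).
Hist1h1e, chr13:23622559-23622708, minus strand: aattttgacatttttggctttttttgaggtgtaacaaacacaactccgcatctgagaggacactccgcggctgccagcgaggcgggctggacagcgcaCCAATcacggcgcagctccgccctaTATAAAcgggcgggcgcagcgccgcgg
Hist1h2ab, chr13:23750938-23751087, plus strand: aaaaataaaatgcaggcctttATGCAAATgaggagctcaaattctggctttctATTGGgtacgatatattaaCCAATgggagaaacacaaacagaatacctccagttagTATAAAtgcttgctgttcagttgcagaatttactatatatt
Hist1h3b, chr13:23752195-23752344, plus strand: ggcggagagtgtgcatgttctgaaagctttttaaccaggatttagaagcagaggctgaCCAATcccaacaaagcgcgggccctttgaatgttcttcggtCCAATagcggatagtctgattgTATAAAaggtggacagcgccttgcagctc
Hist1h4d, chr13:23581418-23581567, plus strand: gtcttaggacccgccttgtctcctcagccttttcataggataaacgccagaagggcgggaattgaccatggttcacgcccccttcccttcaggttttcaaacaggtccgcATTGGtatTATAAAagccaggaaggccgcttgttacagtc
In these 4 windows the TATAAA lies near the start and the CCAAT further from it, except in Hist1h4d, where ATTGG stands 3 bases before TATAAA. The match is a description of letters and shows no binding.

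Histone RNA was detected in every type, at levels that spread most in the 3 growing epithelial types. The summed TPM of the 71 rows had a median per cell of 415 TPM in telogen bulge and 586 TPM in telogen germ. It was 275.7 TPM in anagen I germ, 253.1 TPM in anagen II matrix and 362.5 TPM in anagen VI matrix, and 164.3 TPM in the dermal papilla. The highest cells reached 1150 and 2646 TPM in the telogen types, 15835, 21357 and 19858 TPM in the growing types and 3017 TPM in the dermal papilla. The growing epithelial types thus had lower medians than the telogen germ and far higher top cells, and their means (2170, 855 and 1938 TPM) lay above their medians. Since TPM is a share of all RNA read, less of other RNA and more of these cannot be told apart. A median of 54.3% to 77.4% of the TPM of the groups and of their Mki67 classes lay on 7 ribosomal RNA rows.

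**Figure D1:**
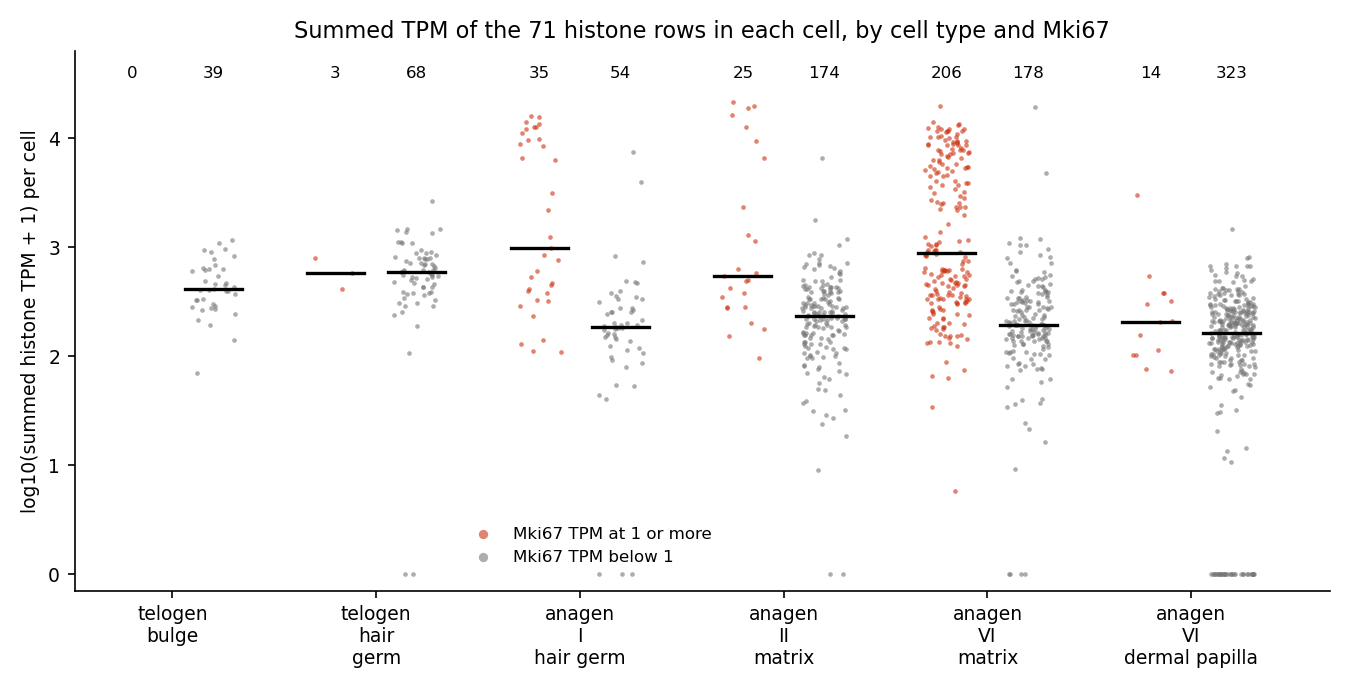
Summed TPM of the 71 histone rows in each cell, as log10(TPM + 1), by the authors' cell type; red points are cells with Mki67 at TPM 1 or more and grey points cells below 1, lines are medians and the numbers above are cells. The highest cells, up to 21357 TPM, are in anagen I hair germ and the 2 matrix types and nearly all red, while the telogen and dermal papilla cells stay at or below 3017 TPM.

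Detection was wide: 61 of the 71 rows were detected in at least 10% of the cells of 1 or more types and 14 in at least 10% of every type. By type the number was 25 in telogen bulge, 32 in telogen germ, 54 in anagen I germ, 31 in anagen II matrix, 60 in anagen VI matrix and 17 in the dermal papilla. Anagen VI matrix, which had the most genes per cell, also had the most histone rows. Only Hist1h1e and Hist1h4d were detected in at least 50% of the cells of every type. Hist1h2aa, an H2A gene, was at 0 in every cell, and the other 70 rows had some TPM in at least 1 cell. Per cell, the median number of histone rows detected was 10, 12, 11, 9, 17 and 7 in the order of the types above.

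**Figure D2:**
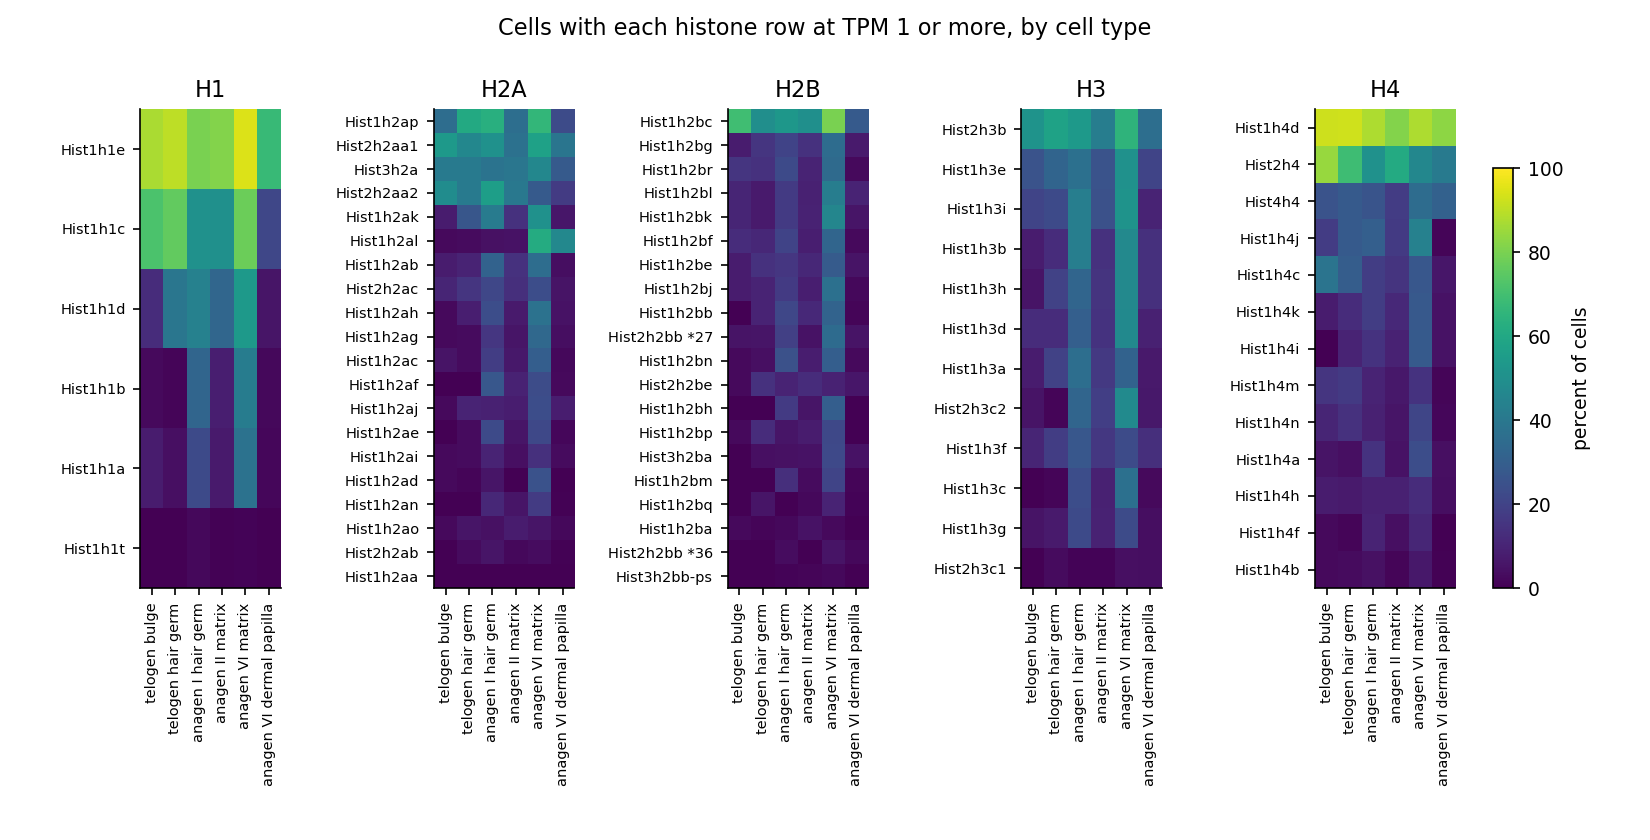
Percent of the cells of each type with each histone row at TPM 1 or more, 1 panel for each histone class and members in order of detection; the rows of Hist2h2bb are marked by the last digits of their identifiers. Hist1h1e, Hist1h4d and Hist2h4 are bright in all or most types, and anagen VI matrix is the column with the most rows above 10%, 60 of 71.

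Among the linker histones, Hist1h1e and Hist1h1c were found in all types and Hist1h1b almost only in growing epithelium. Hist1h1e averaged 127.4 TPM in telogen bulge, 128.3 TPM in telogen germ, 181.05 TPM in anagen I germ, 118.1 TPM in anagen II matrix, 162.7 TPM in anagen VI matrix and 47.1 TPM in the dermal papilla. It was detected in 67.4% of the dermal papilla cells (interval 62.1% to 72.3%) and in 79.8% to 94.8% of the cells of the other types. Plate means ran from 118.2 to 219.3 TPM over the 5 P30 matrix plates and from 41.5 to 49.7 TPM over the 4 dermal papilla plates. The plate means of these types thus did not overlap. Their cells did, with up to 450 TPM in the dermal papilla and a median of 67.7 TPM in anagen VI matrix. The highest P30 matrix plate holds the cell of 72 genes named above, with 6543 TPM of Hist1h1e. Over cells with at least 1000 genes anagen VI matrix averaged 147.15 TPM. Hist1h1c averaged 19.7 and 22.97 TPM in the telogen bulge and germ, 8.65 to 17.4 TPM in the growing epithelial types and 2.75 TPM in the dermal papilla. Hist1h1d averaged 4.37 TPM in telogen bulge, 13.5 TPM in telogen germ and 20.7 to 47.7 TPM in the growing epithelial types. Hist1h1b averaged 0.309 and 0.111 TPM in the telogen bulge and germ, with 1 cell detected in each, against 38.5, 12.6 and 28.8 TPM in anagen I germ, anagen II matrix and anagen VI matrix.

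Among H2A, Hist1h2ap led in the growing epithelial types. Hist1h2ap averaged 14.6 TPM in telogen bulge, 36.9 TPM in telogen germ, 532 TPM in anagen I germ, 172.5 TPM in anagen II matrix, 426 TPM in anagen VI matrix and 14.2 TPM in the dermal papilla. Its median was 25.3 TPM in anagen I germ, 0 in anagen II matrix and 29.8 TPM in anagen VI matrix, so the means rested on a minority of cells. Over the 3 anagen II matrix plates its mean ran from 13.9 to 296.1 TPM. Hist1h2ak averaged 1.61 and 9.47 TPM in the telogen bulge and germ and 76.6, 18.6 and 61.5 TPM in the growing epithelial types. The anagen VI value holds the cell of 4762 TPM named above, and was 49.6 TPM over cells with at least 1000 genes. Hist1h2ab averaged 1.76 and 3.58 TPM in the telogen types and 80.5, 52.1 and 26.95 TPM in the growing ones, and the anagen II value holds the cell of 6550 TPM named above. Hist2h2aa1 spread less, from 10.6 TPM in the dermal papilla and 12.6 TPM in anagen II matrix to 28.3 TPM in telogen and in anagen I germ.

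Among H2B, Hist1h2bc led in every type. It averaged 57.9 TPM in telogen bulge, 34.8 TPM in telogen germ, 26.1 TPM in anagen I germ, 25.7 TPM in anagen II matrix, 44.1 TPM in anagen VI matrix and 8.68 TPM in the dermal papilla. Its 5 plate means in P30 matrix had a lowest value of 28.6 TPM, a median of 29.7 TPM and a highest of 95.9 TPM, so that 1 plate stood apart. The next H2B rows by level, Hist1h2bg, Hist1h2bl and Hist1h2bb, averaged 11.9, 14.5 and 15.999 TPM in anagen I germ and 1.52, 1.29 and 0.202 TPM in the dermal papilla. Hist1h2bb was at 0 in all 39 telogen bulge cells (interval of the share detected 0% to 9.03%). In the dermal papilla, whose mice carry the H2B fusion, all H2B rows together averaged 18.1 TPM, and the keratinocyte genes averaged 1.24 TPM; the part of the fusion in these values was not tested.

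Among H3, Hist2h3b was highest in all types. It averaged 21.97 and 31.2 TPM in the telogen bulge and germ, 227.98, 62.5 and 191.5 TPM in anagen I germ, anagen II matrix and anagen VI matrix, and 8.88 TPM in the dermal papilla. Hist1h3i, Hist2h3c2 and Hist1h3b were lower in the telogen types, where Hist1h3i averaged 6.91 TPM in bulge and 6.28 TPM in germ and the others 0.312 to 0.744 TPM. In anagen I germ the 3 averaged 77.9, 44.2 and 56.6 TPM. Hist2h3c2 was detected in 5.13% and 1.41% of telogen bulge and germ cells and in 32.6% of anagen I germ cells, and Hist1h3b in 7.69%, 12.7% and 42.7%.

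Among H4, Hist1h4d was detected as widely as Hist1h1e. It averaged 112.1 TPM in telogen bulge, 201.9 TPM in telogen germ, 193.3 TPM in anagen I germ, 78.1 TPM in anagen II matrix, 180 TPM in anagen VI matrix and 48.6 TPM in the dermal papilla, and was detected in 81.4% to 92.96% of the cells of every type. Its medians were 100.96 and 168.4 TPM in the telogen bulge and germ and 53.1, 40.02 and 35.9 TPM in the growing types. Its share of the RNA read was thus higher in the median telogen cell. Hist2h4, from the same class on chromosome 3, averaged 11.8 and 11.7 TPM in the telogen types and 8.42, 4.94 and 5.11 TPM in the growing ones. It was detected in 84.6% of telogen bulge cells (interval 69.5% to 94.1%) and in 46.1% of anagen VI matrix cells (41.02% to 51.2%). Hist1h4c averaged 13.3 and 16.5 TPM in the telogen types and 5.74 to 6.32 TPM in the growing ones. Hist1h4j averaged 1.89 and 3.82 TPM in the telogen types and 12.1, 5.39 and 12.1 TPM in the growing ones.

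The classes took different shares of the summed histone TPM in the types. Over cells with at least 1000 genes, H1 and H4 together took more than the other classes together in telogen bulge, 31.1% and 31.2%, and in telogen germ, 25.1% and 38.2%. Dermal papilla cells gave them 25.1% and 28.2%. In anagen I germ, anagen II matrix and anagen VI matrix H2A took 41.3%, 35.7% and 38.03% and H3 27.1%, 21.2% and 26.3%. In telogen bulge H2A took 15.4% and H3 7.79%, and in telogen germ 17.7% and 8.42%. H2B took 6.07% to 14.6% in the 6 types.

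**Figure D3:**
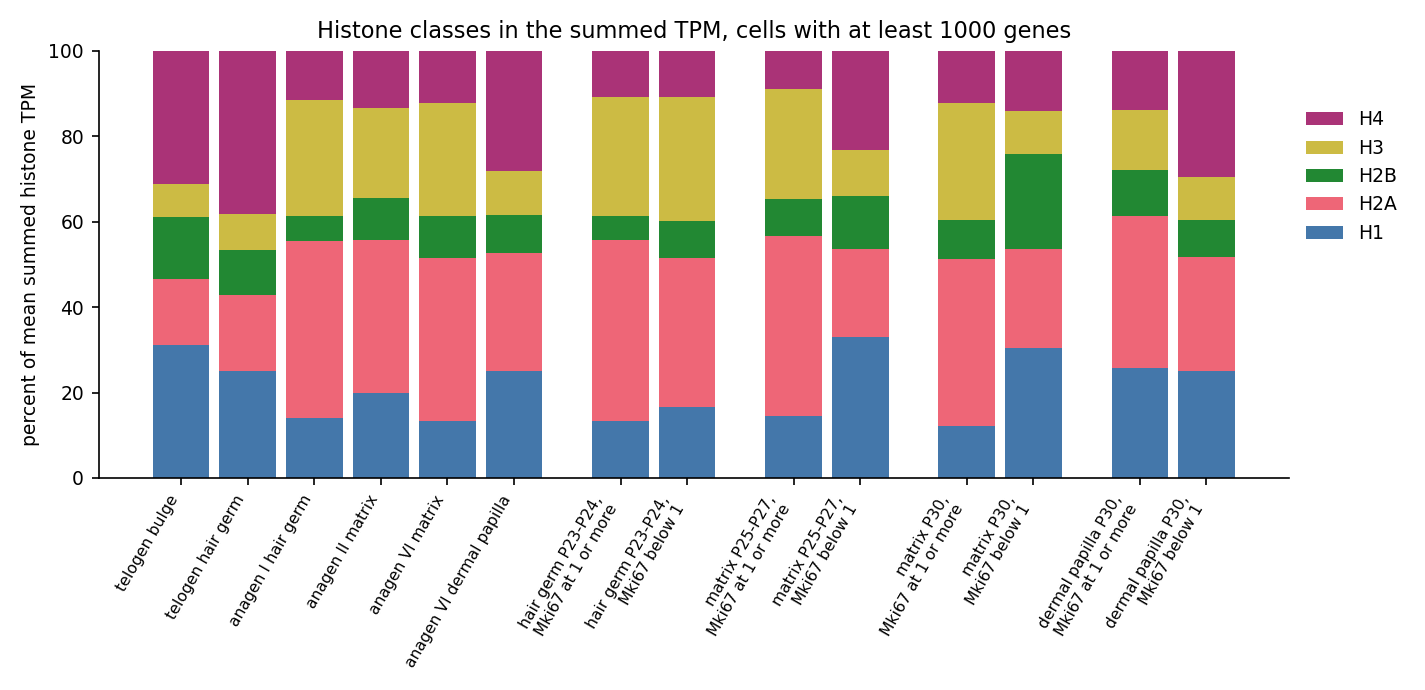
Percent of the mean summed histone TPM that each class takes, over cells with at least 1000 genes, for the 6 types on the left and for the cells with Mki67 at TPM 1 or more and below 1 of 4 groups on the right. H2A and H3 fill most of the bars of the growing epithelial types (41.3% and 27.1% in anagen I germ), and H1 and H4 those of the telogen types (25.1% and 38.2% in telogen germ). In P23 to P24 germ cells without Mki67 and in dermal papilla cells with Mki67, 1 cell holds 53.9% and 50.5% of the TPM behind the bar.

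Mki67, the gene of the proliferation antigen Ki-67, was then used to split the cells of a group at 1 TPM. It was detected in 0 of 39 bulge cells at P21 (interval 0% to 9.03%), 4.23% of germ cells at P21, 47.9% of germ cells at P23 to P24, 12.6% of matrix cells at P25 to P27, 53.6% of matrix cells at P30 and 4.15% of dermal papilla cells. The split sets cells with Mki67 detected against the rest of the same group, and the difference for a row is that of the mean log2(TPM + 1). A cell below 1 TPM may have missed Mki67, and cells with it had more genes detected in the germ and both matrix groups. With 0 and 3 cells with Mki67, the P21 groups were not split.

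In germ cells of P23 to P24, 35 cells with Mki67 were set against 38 without. Summed histone TPM had a median of 986 TPM in the cells with Mki67 (quartiles 387 and 9664 TPM), against 178.995 TPM in those without (108.04 and 254.1 TPM). The median number of histone rows detected was 23 against 8, and that of genes 7610 against 6407.5. Of the 71 rows, 51 were higher by 1 or more in the cells with Mki67 and 0 were lower by as much, while 16.5% of all 14132 rows tested were higher by 1 or more. Rows tested are those detected in at least 5% of the cells of both sides together, and 64 histone rows were among them. The median difference of the 71 rows was 1.80, against 0.35 over all rows tested.

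The largest differences in P23 to P24 germ were in H2A and H3. Hist1h2ap averaged 1267 TPM in the cells with Mki67, against 74.5 TPM in those without, a difference of 4.93. Hist1h2ab averaged 203.8 TPM with Mki67 against 0.790 TPM without (4.81), and Hist2h3b averaged 548 TPM against 27.1 TPM (4.77). Hist1h3b averaged 141.9 TPM with Mki67 against 1.06 TPM without (4.67), and Hist1h3i 169.3 TPM against 25.8 TPM (4.41). By class, 5 of 6 H1, 15 of 20 H2A, 12 of 20 H2B, 11 of 12 H3 and 8 of 13 H4 rows were higher by 1 or more. Rows detected in most cells without Mki67 differed too: Hist1h1e averaged 380 TPM with Mki67 against 34.8 TPM without (3.56) and Hist1h4d 414 TPM against 32.5 TPM (3.66).

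In matrix cells of P25 to P27, the 25 cells with Mki67 were set against the others. The median sum was 542 TPM with Mki67 (quartiles 281.2 and 6536 TPM) against 231.9 TPM without (133.3 and 375.4 TPM), with 17 against 7 histone rows and 6774 against 5322 genes. Of the 59 histone rows tested, 47 were higher by 1 or more with Mki67 and 0 were lower by as much, while 9.78% of all 13667 rows tested were higher by 1 or more. With the rows not tested the count was 49 of 71. Hist2h3b averaged 418 TPM with Mki67 against 11.46 TPM without (4.23) and Hist1h2ap 1239 TPM against 19.4 TPM (4.14). Hist1h3i averaged 145.3 TPM against 4.56 TPM (3.68) and Hist1h3b 116.7 TPM against 0.728 TPM (3.51). Hist1h2ab averaged 142.1 TPM with Mki67 against 39.1 TPM without (3.48), where 1 cell alone held 6550 TPM. On the plates with at least 5 cells on each side, the difference in the log2 sum was 2.94 and 2.30. The 5 bulge genes, all detected on both sides, summed to a mean of 688 TPM with Mki67 (range 4.93 to 3267 TPM) against 1449 TPM without (0 to 7003 TPM), and the 6 matrix genes, all detected on both sides, to 84.6 TPM with Mki67 (0 to 427 TPM) against 33.2 TPM without (0 to 329.3 TPM). Their part in the histone differences was not tested.

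In matrix cells of P30 each of the 5 plates held 37 to 44 cells with Mki67 and 31 to 38 without. The median sum was 883 TPM with Mki67 (quartiles 343.01 and 5477 TPM) against 193.98 TPM without (136.4 and 340.8 TPM), with 32.5 against 11 histone rows and 7976 against 6618 genes. Of the 71 rows, 47 were higher by 1 or more with Mki67 and 0 were lower by as much, while 8.2% of all 15033 rows tested were higher by 1 or more; 65 histone rows were among those tested. Hist1h2ap averaged 780 TPM with Mki67 against 16.4 TPM without (5.09), and Hist2h3b 350 TPM against 8.36 TPM (4.01). Hist1h2ah averaged 129.2 TPM with Mki67 against 1.58 TPM without (3.67), Hist1h3h 100.6 TPM against 3.31 TPM (3.51) and Hist1h3i 117.004 TPM against 4.89 TPM (3.50). Over the 5 plates the difference in the log2 sum ran from 2.199 to 3.47, and 44 to 51 rows were higher by 1 or more on each. The share of all rows on single plates is not given here. Hist1h2bc, the leading H2B row, differed less in level, with 47.97 TPM with Mki67 against 39.7 TPM without (1.15), and was detected in 87.9% against 70.2% of the cells.

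Marker genes of other cell types differed across the split in the P30 matrix sort. Whether these markers stand for separate cells was not tested. The 4 melanocyte genes summed to a mean of 282.9 TPM in the cells with Mki67 and 344.99 TPM in those without, and ranged from 0 to 10851 TPM and from 0 to 15790 TPM. By detection these genes went both ways. Dct was detected in 79.6% of the cells with Mki67 against 69.1% without. Mlana was detected in 36.4% against 55.6%, Pmel in 37.4% against 47.2% and Tyrp1 in 33.5% against 47.2%. The 3 pericyte and muscle genes summed to a mean of 91.7 TPM with Mki67 against 383.2 TPM without. All genes of both lists were detected on both sides, and their part in the histone differences was not tested. In P23 to P24 germ the same lists averaged 1.79 and 0.0697 TPM with Mki67 against 1.204 and 0.0674 TPM without. There the 5 bulge genes summed to a mean of 719 TPM with Mki67 (range 17.7 to 2663 TPM, 4 of 5 detected) against 2579 TPM without (0 to 5914 TPM, all 5 detected), and this was not tested either.

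In the dermal papilla the 14 cells with Mki67 stood against all others. The median sum was 206.8 TPM with Mki67 against 162.4 TPM without, with 7.5 against 7 histone rows and 5850 against 5756 genes. Of the 71 rows, 2 were higher by 1 or more with Mki67, both among the 32 histone rows tested. Of all 13873 rows tested, 6.65% were higher by as much, so the count of histone rows was near that share. The 2 were Hist1h1e with 100.8 TPM against 44.8 TPM (1.99) and Hist1h2ak with 5.67 TPM against 0.904 TPM (1.04). Hist1h2ap averaged 80.01 TPM with Mki67 against 11.4 TPM without (0.73). The difference in the log2 sum was 1.14, and 0.38 over cells with at least 1000 genes, a limit chosen after the data were seen. One cell held 974 TPM of Hist1h2ap. That cell had 3017 TPM of histone rows in all, 44 rows detected, 24.98 TPM of Mki67, 10166 genes, and 16 of 20 S phase and 20 of 20 mitosis genes detected. It also had 213.2 TPM of keratinocyte genes, 278.1 TPM of matrix genes and 546 TPM of dermal papilla genes, Corin at 175.02 TPM among them. Without its plate the difference in the log2 sum was 0.63.

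**Figure D4:**
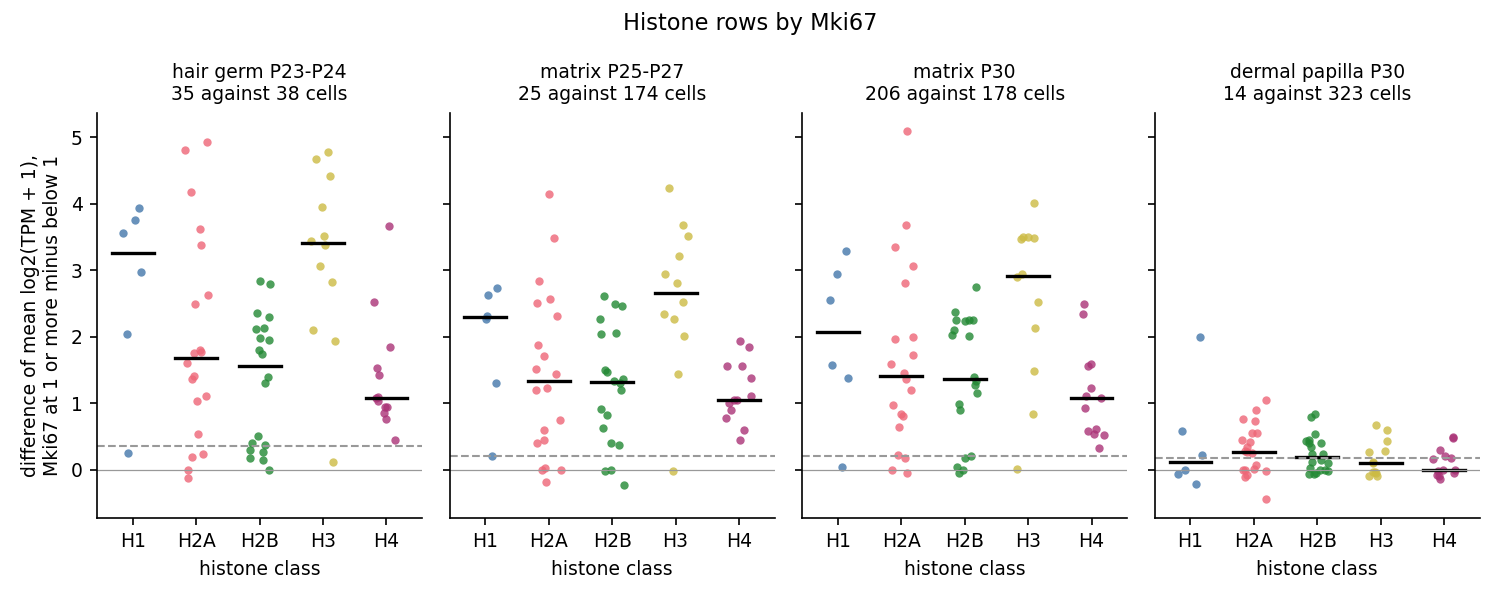
Difference of mean log2(TPM + 1) for each histone row, cells with Mki67 at TPM 1 or more minus cells below 1, by class in 4 groups; black lines are class medians and the dashed line is the median of all rows tested. In the germ and both matrix groups most rows lie above 1 (51, 49 and 47 of 71, of which 51, 47 and 47 were tested). The shares of all rows tested there are 16.5%, 9.78% and 8.2%. In the dermal papilla 2 of 71 lie above 1, both among the 32 tested, near the 6.65% of all rows tested.

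Cells that hold many histone rows at once were nearly all cells with Mki67. At least 30 rows were detected in 15 of 73 germ cells at P23 to P24 (20.5%, interval 11.98% to 31.6%), in 8 matrix cells of P25 to P27 (4.02%, 1.75% to 7.77%), in 120 matrix cells of P30 (31.25%, 26.6% to 36.1%) and in 1 dermal papilla cell. Mki67 was detected in all of these cells except 3 of the P30 matrix. None of 39 bulge cells (interval 0% to 9.03%) or 71 germ cells at P21 (0% to 5.06%) reached it.

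Mki67 is expressed through most of the cycle of dividing cells, so the cells were also split by the number of 20 S phase genes detected, among them the helicase genes Mcm2 to Mcm7 and Pcna. In P30 matrix the 150 cells with Mki67 and at least 10 of these genes had a median sum of 2639 TPM and 43 histone rows. The 56 with Mki67 and fewer S phase genes had 307.6 TPM and 14.5 rows, the 26 with S phase genes and no Mki67 had 202.5 TPM and 15 rows, and the other cells, with neither, had 191.8 TPM and 10 rows. In P25 to P27 matrix the medians were 1796 TPM (16 cells), 346.6 TPM (9 cells), 273.5 TPM (26 cells) and 225.2 TPM (the other cells) in the same order. In P23 to P24 germ they were 1244 TPM (33 cells), 171.02 TPM (2 cells), 191.6 TPM (22 cells) and 150.97 TPM (16 cells). In these 3 groups the high medians were thus those of cells with both, and cells with only 1 of the marks lay closer to those with neither. Genes detected per cell moved with the classes, from 8295 in the first to 6533 in the last class of P30 matrix. The quartiles of the first class in P30 matrix were 549 and 7527 TPM, so that it also held cells with few histone reads.

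The class makeup differed with Mki67 in the matrix. Over cells with at least 1000 genes, H3 took 27.4% of the histone TPM of P30 matrix cells with Mki67 and 10.04% of that of cells without, and H2A took 39.1% with Mki67 and 22.96% without. H1 took 12.2% with Mki67 and 30.5% without, and H2B 9.13% with Mki67 and 22.4% without. In P25 to P27 matrix H2A took 42.1% with Mki67 and 20.6% without, and H4 9.03% with Mki67 and 23.3% without. In P23 to P24 germ H1 took 13.3% with Mki67 and 16.6% without, and H3 27.6% with Mki67 and 29.1% without, but 1 of the germ cells without Mki67, with 7378 TPM and 1711 genes, held 53.9% of the histone TPM of its set. Left out, a choice made after the values were seen, H1 took 20.4%, H2A 33.001%, H3 13.2% and H4 23.4% in the germ cells without Mki67, on a mean of 185.4 TPM. H1 thus took a share near that of the telogen types in matrix cells without Mki67.

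Rows were also grouped by where the annotated transcript ends. The annotation behind the authors' TPM is not given in the sources used here, so the ends, lengths and shared windows read from GENCODE M21 may differ from those that set the values. Over cells with at least 1000 genes, the 22 rows that run on for at least 100 bases past the stem-loop took 62.7% of the histone TPM in telogen bulge, 64.7% in telogen germ and 56.9% in the dermal papilla. They took 27.8% in P30 matrix cells with Mki67 and 47.7% in those without, and 27.6% with Mki67 and 59.1% without in P25 to P27 matrix. In P23 to P24 germ they took 27.1% with Mki67 and 33.007% without, or 47.8% without when the cell of 7378 TPM is left out. The 22 rows that end within 100 bases of the stem-loop took 17.1% in telogen bulge, 17.8% in telogen germ, and 36.6% and 16.1% in P30 matrix cells with and without Mki67. Hist1h1e and Hist1h4d, both in the first set, made this difference. They alone took 48.7% in telogen bulge, 50.1% in telogen germ and 46.5% in the dermal papilla. The other 20 rows of the set, a split chosen after the values were seen, took 13.998%, 14.6% and 10.4% there, below the 17.1%, 17.8% and 17.5% of the rows that end within 100 bases. In the 6 sets of germ and matrix cells split by Mki67 the other 20 rows took 10.8% to 14.3%.

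By detection the first set stood apart less. The median row of the 22 that run on was detected in 11.54% of telogen bulge and 16.9% of telogen germ cells, that of the 22 that end near the stem-loop in 7.69% and 9.86%, and that of the 17 whose annotation ends near the stop codon in 2.56% and 4.23%. In P30 matrix cells with Mki67 the 3 medians were 52.7%, 47.6% and 53.4%, and in those without 17.98%, 7.02% and 10.7%. With Mki67 the 3 sets were thus detected about as often. In P23 to P24 germ 17 of 20, 16 of 22 and 14 of 15 tested rows of the 3 sets were higher by 1 or more with Mki67. Of all rows tested there, 16.5% were. In P30 matrix 13 of 20, 16 of 22 and 13 of 14 tested rows were, against 8.2% of all rows tested. A longer annotated transcript lowers the TPM of a given number of reads, and the shares above are of TPM.

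**Figure D5:**
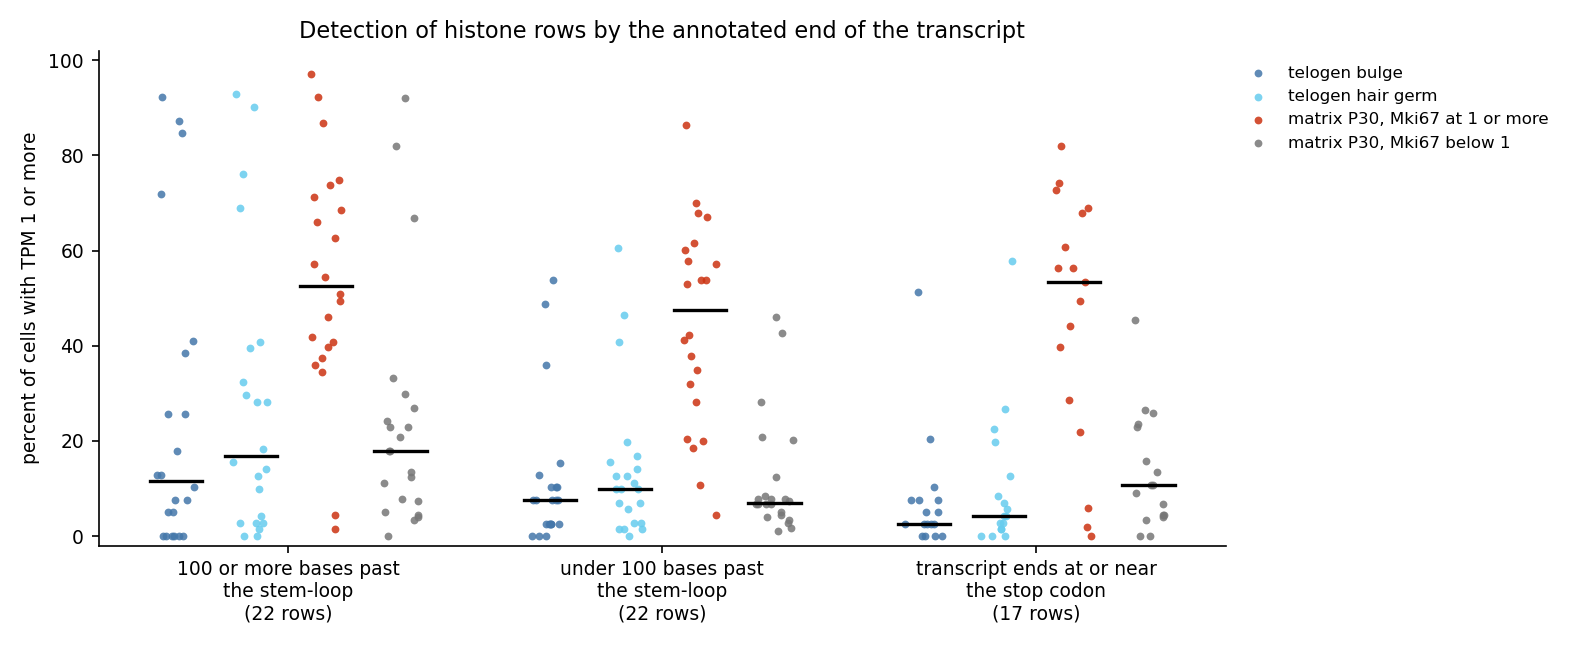
Percent of cells in which each histone row was detected at TPM 1 or more, rows grouped by where the annotated transcript ends, in 4 sets of cells; points are rows and black lines medians. In P30 matrix cells with Mki67 the medians are 52.7%, 47.6% and 53.4%, and in telogen bulge 11.54%, 7.69% and 2.56%.

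Groups of cells were then compared whole. These comparisons share cells, since germ cells of P21 stand in the first and the second, germ cells of P23 to P24 in the second and the third, and matrix cells of P25 to P27 in the third and the fourth. At P21 bulge and germ cells were close. Among the 71 rows, 2 were lower by 1 or more in bulge, while 5.23% of all 14196 rows tested were lower by 1 or more, and 1 was higher, against 2.75% of all rows tested; 44 histone rows were among those tested. Hist1h2ap averaged 14.6 TPM in bulge against 36.9 TPM in germ (-1.55), and Hist1h1d 4.37 TPM against 13.5 TPM (-1.22). Hist1h2bc averaged 57.9 TPM in bulge against 34.8 TPM in germ (1.13). Hist1h2ak (-0.94) and Hist1h4d, with 112.1 TPM in bulge against 201.9 TPM in germ (-0.89), were next. Summed histone TPM had a median of 415 TPM in bulge and 586 TPM in germ, with 5529 against 6215 genes per cell, and the difference in the log2 sum was -0.22. After rescaling without spike-in, mitochondrial and ribosomal RNA rows it was 0.0080, so its direction depends on the scaling.

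In germ cells the median and the mean went opposite ways as growth began. Summed histone TPM had a median of 284.3 TPM at P23 to P24 against 586 TPM at P21, and a mean of 2575 TPM against 658 TPM. The difference in the log2 sum was -0.17, and 0.012 after the same rescaling. Among the histone rows, 18 were higher by 1 or more at P23 to P24, while 5.87% of all 14201 rows tested were higher by 1 or more, and 2 were lower, against 4.71% of all rows tested, so the number of lower histone rows was not above that share; 59 histone rows were among those tested. The 18 were 2 of 6 H1, 7 of 20 H2A, 1 of 20 H2B, 8 of 12 H3 and 0 of 13 H4 rows. Hist1h1b averaged 46.995 TPM at P23 to P24 against 0.111 TPM at P21 (2.36), Hist1h3b 68.6 TPM against 0.744 TPM (2.33) and Hist2h3c2 53.9 TPM against 0.312 TPM (2.15). Hist1h2ab averaged 98.1 TPM at P23 to P24 against 3.58 TPM at P21 (2.11), and Hist1h2af 46.4 TPM, while it was listed at 0 in every P21 germ cell. The 2 lower rows were Hist1h4d, with a mean of 215.6 TPM at P23 to P24 against 201.9 TPM at P21 and a difference of the logs of -1.37, and Hist1h1c, with 13.2 TPM against 22.97 TPM (-1.28). For Hist1h4d the mean of the logs was thus lower at P23 to P24 and the mean TPM was not.

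The median of the summed histone TPM was 253.1 TPM in matrix of P25 to P27 against 284.3 TPM in germ of P23 to P24, and the mean 855 TPM against 2575 TPM. The difference in the log2 sum was -0.80, and -0.52 after rescaling. In this comparison 18 of the 71 rows were lower by 1 or more in matrix of P25 to P27 than in germ of P23 to P24, while 7.75% of all 13744 rows tested were lower by 1 or more, and 0 were higher; 61 histone rows were among those tested. The 18 were 3 of 6 H1, 5 of 20 H2A, 1 of 20 H2B, 9 of 12 H3 and 0 of 13 H4 rows. Hist1h2ap averaged 172.5 TPM in matrix against 646 TPM in germ (-3.02). Hist1h2ak differed by -2.17, Hist1h3b by -1.99, Hist1h1b by -1.90 and Hist1h2ab by -1.77. Mki67 was detected in 12.6% of these matrix cells against 47.9% of the germ cells, and the median number of genes was 5475 against 6861. On the matrix plate 914mat, with 55 cells, Mki67 was detected in none, and the mean of the summed histone TPM was 290.7 TPM, against 949 and 1208 TPM on the other 2 plates.

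Matrix of P30 was set against matrix of P25 to P27 across a change of mouse line, sort and table, which cannot be told apart from age. At P30, 26 of the 71 rows were higher by 1 or more at P30, while 7.51% of all 14759 rows tested were higher by 1 or more, and 0 were lower; 63 histone rows were among those tested. The 26 were 4 of 6 H1, 7 of 20 H2A, 6 of 20 H2B, 8 of 12 H3 and 1 of 13 H4 rows. Hist1h2al averaged 31.3 TPM at P30 against 0.568 TPM at P25 to P27 (2.88), and Hist1h2ap 426 TPM against 172.5 TPM (2.54). Hist1h2ah averaged 70.04 TPM at P30 against 13.3 TPM at P25 to P27 (1.91), Hist1h2ak 61.5 TPM against 18.6 TPM (1.89) and Hist1h3h 55.5 TPM against 11.8 TPM (1.87). The share of cells with Mki67 was 53.6% at P30 against 12.6%, the median number of genes 7361.5 against 5475, and the median share of TPM on ribosomal RNA rows 76.4% against 66.8%.

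Across the groups Hist1h2al did not follow the other H2A rows. This processed pseudogene, away from the clusters, was detected in 2.56% of bulge cells, 2.82% of germ cells at P21, 5.48% of germ cells at P23 to P24, none of 16 germ cells at P25 to P27 (interval 0% to 20.6%) and 5.03% of matrix cells at P25 to P27. In the P30 tables it was detected in 61.5% of matrix cells (interval 56.4% to 66.4%; plates 44.6% to 83.95%) and in 46.6% of dermal papilla cells (41.2% to 52.1%; plates 39.1% to 51.9%). The P30 plates of both types thus lay above all plates of P21 to P27. In P30 matrix it was higher with Mki67 by 1.73, beside a median of 1.52 over the H2A rows tested. In the dermal papilla it was detected in 42.9% of cells with Mki67 and 46.7% of those without. It shares 67.6% of its windows with 21 genes, and the P30 cells differ from the earlier ones in mouse line and table, so these cannot be told apart.

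Genes that handle histones were counted in the same splits, where 16.5%, 9.78% and 8.2% of all rows tested were higher by 1 or more in P23 to P24 germ, P25 to P27 matrix and P30 matrix. Of 14 measured genes that process the 3' end of histone mRNA, 4, 3 and 2 were higher by 1 or more with Mki67 in the 3 groups. On so short a list, none of these counts is read as above its share. Slbp, the stem-loop binding protein, led in each: 59.9 TPM with Mki67 against 13.3 TPM without in germ (3.07), 46.8 TPM against 8.96 TPM in P25 to P27 matrix (2.61) and 22.5 TPM against 8.66 TPM in P30 matrix (1.43). Of 18 genes that carry or import histones, 12, 10 and 11 were higher by 1 or more in the 3 groups. Among them, Asf1b, an H3-H4 chaperone, averaged 10.4 TPM with Mki67 against 0.199 TPM without in P30 matrix (2.19), and Nasp, which binds free histones, 21.7 TPM against 5.96 TPM (2.02). Chaf1b, a subunit of the factor that places H3 and H4 on new DNA, averaged 15.4 TPM with Mki67 against 2.28 TPM without (1.96).

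Replication-independent histone variants are mostly polyadenylated and made outside S phase too. Of 11 genes listed as such, 6 were higher by 1 or more with Mki67 in P23 to P24 germ. In P25 to P27 matrix and P30 matrix 5 and 4 were. H2afz, of the H2A.Z variant, averaged 254.9 TPM with Mki67 against 37.4 TPM without in P30 matrix (3.18), and Cenpa, the H3 of centromeres, 33.1 TPM against 0.631 TPM (3.14). H2afx, whose product is phosphorylated at DNA breaks, averaged 39.1 TPM with Mki67 against 7.29 TPM without (2.06). H3f3a and H3f3b, both of H3.3, are given beside them although the rule did not choose them: in P30 matrix H3f3a averaged 296.7 TPM with Mki67 against 279.1 TPM without (0.46) and H3f3b 118.9 TPM against 89.6 TPM (0.63). All 20 S phase genes were higher by 1 or more with Mki67 in germ and P25 to P27 matrix and 18 in P30 matrix. Of the 20 mitosis genes, 20, 17 and 20 were. Among the 17, Ccnb2 (1.19) and Nusap1 (1.09) were not among the rows tested. The shares of all rows tested were 16.5%, 9.78% and 8.2% in the 3 groups.

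The same lists were counted in the comparisons of whole groups. In germ of P23 to P24 against P21, where 5.87% of all rows tested were higher by 1 or more, 19 of 20 S phase, 15 of 20 mitosis, 6 of 18 chaperone, 3 of 14 processing and 2 of 11 variant genes were higher by 1 or more. In matrix of P25 to P27 set against germ of P23 to P24, where 7.75% of all rows tested were lower by 1 or more, 19, 12, 9, 3 and 4 genes of the same lists were lower by 1 or more. In P30 matrix against P25 to P27 matrix, where 7.51% of all rows tested were higher by 1 or more, 3 of 20 S phase and 14 of 20 mitosis genes were higher by 1 or more, with 1 chaperone, 3 processing and 2 variant genes, and 1 variant was lower; 1 of 18 chaperone genes is near that share. In bulge against germ at P21, 1 of 20 S phase, 3 of 18 chaperone and 1 of 11 variant genes were lower by 1 or more, against 5.23% of all rows tested, so that the S phase count is near that share.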

How the data were processed

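Single cells were read by Smart-seq2 with Nextera XT libraries on a NextSeq 500, per the labels' protocols. The authors deposited TPM values in 3 tables of 46609 rows, 1 for P21 to P27, 1 for the P30 hair bulb and 1 for the P30 dermal papilla. Per the submitters' processing notes, Bowtie2 2.2.9, RSEM 1.2.30 and mm10 were used; TPM gives each cell a total of 1000000 and holds no read depth. In the deposited file of the dermal papilla the characters "/t" stand where tabs would, and were read as separators. The cell types are the authors' deposited annotation. All 1119 columns matched a sample.

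Python 3.11.15, numpy 2.4.6, pandas 2.3.3, scipy 1.17.1 and matplotlib 3.10.9 were used. Differences are of mean log2(TPM + 1), with a pseudocount of 1, the first group minus the second. They understate the change of low genes. Rows tested were detected in at least 5% of the cells of both groups together, without the 92 spike-in rows, and a row was called at a difference of 1 in either direction. No test was made, since the labels name no animal. The difference of log2(summed histone TPM + 1) summarises each comparison. The difference and the filter for rows tested were checked on simulated data with known differences, and the other steps were not.

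Stem-loops and shared windows of 50 bases were read from GENCODE M21 transcripts, with 69 rows matched by identifier and 2 by symbol. The comparison rests on GRCm38, the assembly also named mm10.

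The members and all gene lists were chosen with earlier results of these data known. Members named are, in each class, the 4 with the highest mean over the 6 types, in each comparison the 5 with the largest difference among rows tested, any at 0 in every cell, and up to 4 genes of each other list described; others are said to be chosen after their values were seen, or stand beside them for contrast (Hist1h1e, Hist1h4d and Hist1h2bc, which the class rule also takes). Alternatives were other pseudocounts, filters and detection limits, rescaling, ratios of means, limits on genes per cell, other marks of division, and leaving out each plate. The limit of 1000 genes and the shares without 1 cell or 2 rows were added after seeing the data.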

Additional observations from a re-analysis of the deposited data

Results flagged for a closer look

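Hist1h2al gave differences of opposite sign with Mki67 in the 2 groups of matrix cells. At P25 to P27 only 5.03% of all matrix cells had it. The interval below for cells with Mki67 holds the share of those without, so no direction is shown there. At P25 to P27 it was detected in 0 of 25 cells with Mki67 (interval 0% to 13.7%) and in 5.75% of those without, a difference of -0.19 in mean log2(TPM + 1), and the plates with at least 5 cells on each side gave -0.29 and -0.08. At P30 it was detected in 74.3% of cells with Mki67 and 46.6% of those without, a difference of 1.73, and the 5 plates ran from 1.27 to 2.11. The first difference minus the second is -1.92. This gap was not tested, since each group is 1 sample, and the groups also differ in mouse line, sort and table.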

How the results depend on the processing

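Among the alternatives for the summed differences, 3 turned the direction and 13 moved the value by more than 1.5 times. For bulge against germ at P21 (-0.22), a pseudocount of 0.1 gave -0.12, rescaling after spike-in, mitochondrial and ribosomal RNA rows were taken out 0.0080, the log2 ratio of means -0.42, cells with at least 4000 genes -0.40 and with at least 1000 genes, chosen after seeing the data, -0.47. For germ of P23 to P24 against P21 (-0.17), a pseudocount of 10 gave -0.10, rescaling 0.012 and the ratio of means 1.97. For matrix of P25 to P27 against germ (-0.80), rescaling gave -0.52, the ratio of means -1.59 and leaving out a plate -0.88 to -0.72. For matrix of P30 against P25 to P27 leaving out a plate gave 0.88 to 1.14. With Mki67 in P25 to P27 matrix, the ratio of means gave 3.84 and leaving out a plate 2.18 to 2.88, and in P30 matrix leaving out a plate 2.47 to 2.80. In the dermal papilla (1.14), both limits on genes gave 0.38, leaving out a plate 0.63 to 1.63, the lowest without DP5, Top2a in place of Mki67 1.76 (9 cells with it) and 10 S phase genes 2.94, which sets only 2 cells against all others, 1 of them the cell of 3017 TPM. Counts of rows higher or lower by 1 moved by over 1.5 times in 34 alternatives, mostly with the pseudocount and the ratio of means. At a pseudocount of 10 the rows higher with Mki67 were 25 in germ, 25 in P25 to P27 matrix and 22 in P30 matrix, against 51, 47 and 47 among rows tested. For germ of P23 to P24 against P21 the 18 higher rows became 32 at a pseudocount of 0.1, 8 at 10 and 37 with the ratio of means, and for matrix of P25 to P27 against germ the 18 lower rows became 34, 5 and 35. In the dermal papilla the count of 2 became 13 with the ratio of means and 23 with S phase genes, again on 2 cells. The shares of all rows tested at these settings are not given here. The counts therefore show only how the calls depend on the setting. The causes were not tested. No paired analysis was possible because the cells share no numbered replicates and no test was made.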

Other observations

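The 16 hair germ cells of P25 to P27 enter no comparison. Their summed histone TPM had a median of 232.03 TPM and a range from 42.9 to 829.6 TPM, with 2 to 14 histone rows detected per cell and Mki67 in none of them (interval 0% to 20.6%). H1 took 32.99% of their mean histone TPM, H4 30.4%, H2A 19.6%, H2B 12.99% and H3 3.99%. Their 5 bulge marker genes summed to a mean of 3490 TPM and their 3 hair germ marker genes to 54.1 TPM.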
